A study of Mus musculus with 23 samples.

Results

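Transcripts of 9 genes for ligands that T cells and NK cells secrete were followed in single-cell RNA-seq libraries of lymph node (LN) and spleen. The chemokine genes were Ccl5, Ccl3, Ccl4 and Xcl1, and the cytokine genes were Ifng, Tnf, Il10, Tgfb1 and Il16. The members were taken by gene symbol, 9 of the 32285 genes in the expression matrices, and all 9 were present in every matrix. A member's level is given as its unique molecular identifiers (UMIs, each tagging 1 captured transcript) per 1000000 UMIs of the cells examined (CPM), and as the share of cells with at least 1 UMI of it.

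The mice were C57BL/6 animals aged 2 months, the mutant lines having been made in C57BL/6N mice, and were either wild type (WT) or with a missense change of 1 tyrosine of STAT5B to phenylalanine (Stat5b Y665F) or histidine (Y665H). The 7 LN libraries were 2 of WT, 3 of Y665F heterozygous (het) and 2 of Y665F homozygous (homo) mice, each with a matching T cell receptor library. For the spleen there was 1 library each of WT, Y665H and Y665F CD45+ cells, pooled from several mice by the methods, and the labels do not give the zygosity of the mutant spleens. The mutations are carried in every cell of the animal, in lines made by editing zygotes, and because a missense change need not alter the Stat5b transcript level, that level cannot check the labels.

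CCL5, CCL3 and CCL4 are chemokines that recruit T cells, monocytes and other leukocytes, and XCL1 attracts the dendritic cells that carry XCR1. Interferon gamma, the product of Ifng, activates macrophages and raises antigen presentation, while TNF is an inflammatory cytokine. IL-10 and TGF-beta 1 restrain immune responses, and IL-16 is cut from a precursor by caspase 3 and binds CD4. Memory CD8 T cells and NK cells keep Ccl5 transcripts ready for rapid secretion, and STAT5B relays signals from the receptors of IL-2, IL-7 and IL-15, on which these cells depend.

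The genes lie in scattered places of the mouse genome (GRCm38). On chromosome 11, Ccl5 is at chr11:83525778-83530518 on the minus strand, Ccl3 at chr11:83647844-83649355 on the minus strand and Ccl4 at chr11:83662584-83664683 on the plus strand. Xcl1 is at chr1:164931644-164935527 on the minus strand and Il10 at chr1:131019845-131024974 on the plus strand. Ifng is at chr10:118441046-118445892 on the plus strand and Tnf at chr17:35199381-35202007 on the minus strand. Tgfb1 is at chr7:25687002-25705077 on the plus strand and Il16 at chr7:83642825-83745726 on the minus strand. Ifng is overlapped on its own strand by the gene model Gm49751, which shares 22.6% of the 31-base stretches of its exons. Reads from that stretch could be lost or split in counting only if Gm49751 was itself among the counted genes. Xcl1 is overlapped by a gene on the opposite strand and Il16 by genes on both strands.

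Ifng and Xcl1, the members with called changes for which RefSeq promoters were at hand, are shown from 250 bases before to 50 bases after the transcription start (GRCm38.p6). Capitals mark matches, on either strand, to TTCNNNGAA (the palindrome that STAT proteins bind), TATAAA (the TATA box) or GGAAA (an NFAT half-site, written TTTCC where it lies on the other strand). The Ifng promoter is chr10:118440796-118441095 on the plus strand and the Xcl1 promoter is chr1:164935473-164935772 on the minus strand, both written in the direction of transcription.
Ifng: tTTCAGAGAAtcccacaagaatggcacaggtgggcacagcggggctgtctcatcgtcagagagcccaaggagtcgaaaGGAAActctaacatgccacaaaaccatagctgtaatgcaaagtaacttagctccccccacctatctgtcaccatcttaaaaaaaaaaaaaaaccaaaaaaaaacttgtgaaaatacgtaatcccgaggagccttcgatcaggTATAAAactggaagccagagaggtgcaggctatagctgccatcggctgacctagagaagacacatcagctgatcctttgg
Xcl1: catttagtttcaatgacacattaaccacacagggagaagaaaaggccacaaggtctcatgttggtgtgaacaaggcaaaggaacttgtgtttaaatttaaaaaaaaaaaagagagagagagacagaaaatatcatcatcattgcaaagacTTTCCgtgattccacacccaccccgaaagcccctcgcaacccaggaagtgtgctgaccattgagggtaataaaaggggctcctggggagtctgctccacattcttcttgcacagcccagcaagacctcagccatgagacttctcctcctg
The Ifng promoter held TTCNNNGAA with its first base 249 bases before the start, GGAAA 172 bases before it and TATAAA 30 bases before it. The Xcl1 promoter held 1 GGAAA, on the other strand, with its first base 100 bases before the start. Of 32851 RefSeq promoters of the same length, 8.30% held TTCNNNGAA, 13.6% held TATAAA and 61.3% held GGAAA. These matches describe the sequence only, and no binding was measured.

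T and NK cells were gated by marker UMIs. The CD8 T gate held cells with a CD3 chain UMI, a Cd8a or Cd8b1 UMI and none of Cd4. The conventional CD4 T gate held Cd4-positive T cells without Foxp3, the Treg gate Cd4-positive T cells with Foxp3, and the NK gate cells with Ncr1 or Klrb1c and no CD3 chain. At most 1 UMI of B cell markers and 1 of myeloid markers was allowed. The all T and NK gate held every such T or NK cell, also T cells with neither a Cd4 nor a CD8 UMI or with both. In LN it held 25673 cells, against 10902 in the CD8 T, 3077 in the conventional CD4 T, 220 in the Treg and 111 in the NK gate. The LN libraries kept 4604 to 9216 cells with medians of 410 to 3119 UMIs, and het replicate 3 and homo replicate 1 stood apart as the shallowest, with medians of 410 and 436. The spleen libraries kept 5028 to 8018 cells with medians of 5121.5 to 6707.5 UMIs. Any 2 libraries shared at most 91 cell barcodes, 1.56% of the smaller library at most. No 2 libraries agreed within sampling noise, the lowest chi-square per gene being 1.60, between het replicate 3 and homo replicate 1. The LN CD8 T gate held 971 to 2395 cells per library, the NK gate 6 to 32 and the Treg gate 2 to 82. In the LN CD8 T gate the NK markers summed to 0 to 3.7 CPM and the neutrophil list to 0 to 0.3 CPM.

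Where the ligands were transcribed was seen first across the LN gates. Ccl5, Xcl1 and Ccl3 were most abundant in the NK gate, and Ccl5 and Xcl1 came next in CD8 T cells. In NK cells Ccl5 stood at 5060 and 6614 CPM in the WT libraries, 16631, 9043 and 12470 in the het libraries and 14007 and 23053 in the homo libraries, and 77.8 to 100% of the cells had a UMI of it. Every NK value was above every CD8 T value, and the lowest CD8 T value, 209 CPM, was above all CD4 T and Treg values, the highest of which was 95.0. Xcl1 stood at 312 to 1311 CPM in NK cells and 15.3 to 60.7 in CD8 T cells. Its UMIs in conventional CD4 T cells were 1 each in het replicates 2 and 3 and 0 in the other 5 libraries, and 0 in all Treg cells. Ccl3 reached 0 to 719 CPM in NK cells, from at most 16 UMIs a library, and was at 0 in all conventional CD4 T and Treg cells. Mean Ccl4 in NK cells was 162, 181 and 77.9 CPM in WT, het and homo, from 12, 12 and 1 UMIs. In CD8 T cells the Ccl4 means were 8.05, 26.7 and 43.8 CPM. Mean Ifng in NK cells was 105 and 150 CPM in WT and het, from 8 and 10 UMIs, and 0 in homo. In CD8 T cells the Ifng means were 5.05, 15.5 and 29.7 CPM.

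Free RNA gives UMIs of a gene in cells that do not make it, and the B gate gave a measure of it. In LN B cells, with medians of 299 to 1944 UMIs against 511 to 3912 in CD8 T cells, 0 to 0.982% had a Ccl5 UMI, and the highest level was 93.5 CPM in homo replicate 1. The Ccl5 shares in conventional CD4 T cells, 0.257 to 1.77%, were of the same low order, so only the CD8 T and NK levels of Ccl5 stood clear of this background. Ccl4 stood at 3.84 to 13.1 CPM in B cells, a range that held both WT CD8 T values but no mutant one. Its B cell mean was higher in WT (11.1 CPM) than in het (5.85) and homo (7.41), from 1 to 34 UMIs a library. Ccl3 in B cells, at 0.821 and 1.16 CPM in WT and 3.84 to 14.0 in the mutant libraries from at most 13 UMIs, was above its CD8 T level in 6 of 7 libraries, and whether the B cell values of these genes are free RNA was not tested. Xcl1 and Ifng gave at most 1 UMI each in the B cells of a library. Tgfb1 and Il16 had no such contrast between gates. Tgfb1 stood at 288 to 370 CPM in B cells and 99.6 to 142 in CD8 T cells, and Il16 at 196 to 253 and 131 to 193.

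**Figure D1:**
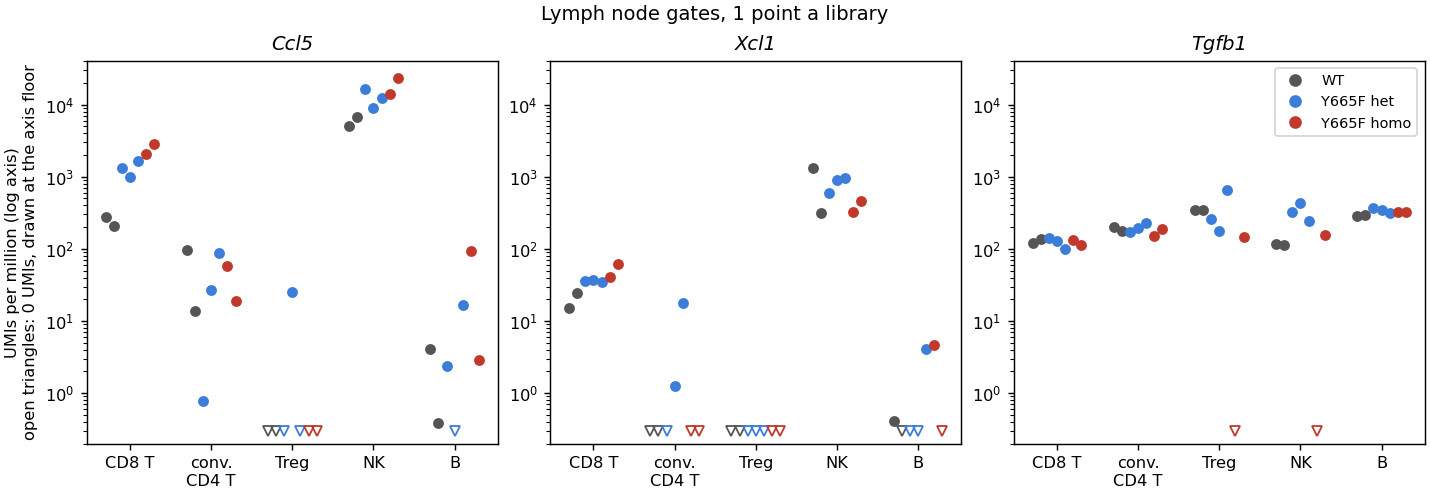
Level of Ccl5, Xcl1 and Tgfb1 (CPM, log axis) in 5 LN gates, 1 point per library and open triangles for 0 UMIs; NK gates hold only 6 to 32 cells and Treg gates 2 to 82. Ccl5 and Xcl1 lay highest in NK cells and next in CD8 T cells, whereas Tgfb1 was spread over all gates.

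The main comparison asked how the Y665F allele, in 1 or 2 copies, changed these ligands in LN CD8 T cells. Ccl5, Ccl4 and Ifng were higher than WT in both the het and the homo mice, and Xcl1 was called higher in the homo mice. Tnf, Tgfb1 and Il16 were not called in either comparison, and Ccl3 and Il10 were too rare to pass the filter on low counts. UMIs were summed per library and tested across all genes with edgeR's quasi-likelihood test, and calls required an absolute log2 fold change above 1 together with an adjusted p (Benjamini-Hochberg) below 0.05. In homo against WT, 4 of the 7 tested members were called, all higher, against 1.21% of all genes tested. In het against WT, 3 of 7 were called, all higher, against 0.491% of all genes. The members were chosen with earlier results of these data known, so these counts beside the shares are descriptions and no separate support. At an unadjusted p under 0.05 in edgeR there were 4 members in homo and 5 in het. The share of all genes at that unadjusted threshold is not given, here or for the unadjusted counts below, so these counts have no base to be read against.

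Ccl5 stood in the CD8 T gate at 276 and 209 CPM in the WT libraries, at 1320, 978 and 1655 in the het libraries and at 2033 and 2838 in the homo libraries. The 3 genotypes did not overlap, with means of 242 ± 47.5 (SD, n = 2), 1317 ± 339 (n = 3) and 2436 ± 569 (n = 2) CPM. How many of all genes separated in this way is not given, here or for the members below. The log2 fold change was 3.40 (SE 0.23, adjusted p = 5.13e-09, edgeR) in homo against WT and 2.49 (SE 0.21, adjusted p = 8.54e-07) in het against WT. Ccl5 was also called, in the same direction, in both comparisons under all 15 alternative settings tried, over a range of 3.07 to 3.65 and 2.25 to 2.71.

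The share of CD8 T cells with a Ccl5 UMI was 8.11 and 7.14% in WT, 36.4, 27.4 and 30.4% in the het and 39.3 and 47.9% in the homo libraries. Since the libraries differed in depth, each cell was also thinned to 300 UMIs. The thinned share was 3.40 and 3.30% in WT, 18.7, 13.6 and 23.5% in the het and 31.4 and 32.2% in the homo libraries, so that the order of the genotypes also held at equal depth. Positive cells held on average 1.75 to 2.43 Ccl5 UMIs after thinning in the 7 libraries. This mean covers only cells with at least 1 UMI and so cannot fall below 1, which bars a comparison of its range with that of the shares. By the exact Jonckheere-Terpstra permutation test over the 210 arrangements of the libraries, the thinned share rose in the order WT, het, homo at two-sided p = 0.00952, the smallest value the design allows. That p was 0.143 after adjustment over the 45 tests of 9 members in 5 gates. Xcl1 in CD8 T cells, from thinned shares of 0.0872 to 1.21%, and Ccl5 over all T and NK cells reached the same values, and no member in any gate passed after adjustment, which with 7 libraries could be reached only if many of the 45 tests were at the smallest p together. The order of the rarer genes depended on the thinning: for Xcl1 in CD8 T cells p was 0.152 at 500 UMIs and 0.876 without thinning, while Ccl4 and Ifng, at 0.0762 with 300 UMIs, reached 0.00952 at 500 UMIs and were at 0.276 without thinning.

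Ccl4, the gene of a chemokine that recruits T cells and monocytes, stood at 4.65 and 11.4 CPM in WT, 26.1, 24.3 and 29.5 in the het and 29.7 and 57.8 in the homo CD8 T cells. Both WT libraries lay below all mutant ones, while the lower homo value was within 1 CPM of the highest het value. The log2 fold change was 2.49 (SE 0.29, adjusted p = 2.09e-05) in homo and 1.53 (SE 0.27, adjusted p = 0.00425) in het, both against WT. Ccl3, a close relative on the same chromosome, gave 0 and 5 UMIs in WT, 16, 3 and 0 in the het and 2 and 13 in the homo CD8 T cells, too few to pass the filter on low counts. In the 6 alternatives that tested it, Ccl3 in homo against WT was at an unadjusted p under 0.05 but was not called (lowest adjusted p = 0.0798, without the filter). The 0 in WT replicate 1 allows a share of up to 0.262% of cells with a UMI.

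Xcl1 stood at 15.3 and 24.5 CPM in WT, 36.1, 37.4 and 35.05 in the het and 40.1 and 60.7 in the homo CD8 T cells. Again no WT value reached a mutant one, and the 3 het libraries were within 3 CPM of each other. The log2 fold change was 1.43 (SE 0.21, adjusted p = 0.000362) in homo against WT. In het against WT it was 0.84 (SE 0.19), which passed on p (adjusted p = 0.0298) but not on size. Without the 5% of barcodes with most UMIs, Xcl1 was called in het as well (1.07, adjusted p = 0.0109).

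Ifng, encoding the signature cytokine of type 1 responses, was rare and stood at 2.66 and 7.45 CPM in WT, 20.4, 15.1 and 11.1 in the het and 22.3 and 37.2 in the homo CD8 T cells. These values rest on 4 and 28 UMIs in WT, 162, 52 and 6 in the het and 15 and 90 in the homo libraries. The genotypes did not overlap, and the log2 fold change was 2.54 (SE 0.33, adjusted p = 7.81e-05) in homo and 1.66 (SE 0.31, adjusted p = 0.00665) in het against WT. Thinned to 300 UMIs, at most 0.616% of CD8 T cells in any library had an Ifng UMI, 0.906% a Ccl4 UMI and 1.21% an Xcl1 UMI, so these shares rest on few cells and are given as levels.

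Not all calls of these less abundant genes were kept when 1 library was left out. Where that left 1 library of a genotype, the spread was estimated from the other genotypes, and a lost call can come with a larger fold change. Without homo replicate 2, Ccl5 was the 1 member still called in homo against WT, and the log2 fold changes of Ccl4, Xcl1 and Ifng were 1.66 (adjusted p = 0.13), 0.90 (adjusted p = 0.345) and 1.88 (adjusted p = 0.192) in the CD8 T gate. In het against WT, Ccl5 was again the 1 call left without WT replicate 2 (Ccl4 2.48, adjusted p = 0.0731, and Ifng 2.77, adjusted p = 0.0909) or without het replicate 1 (Ccl4 1.51, adjusted p = 0.0668, and Ifng 1.33, adjusted p = 0.203). DESeq2 called Ccl5 and Ccl4 but not Ifng in het against WT (Ifng adjusted p = 0.145).

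**Figure D2:**
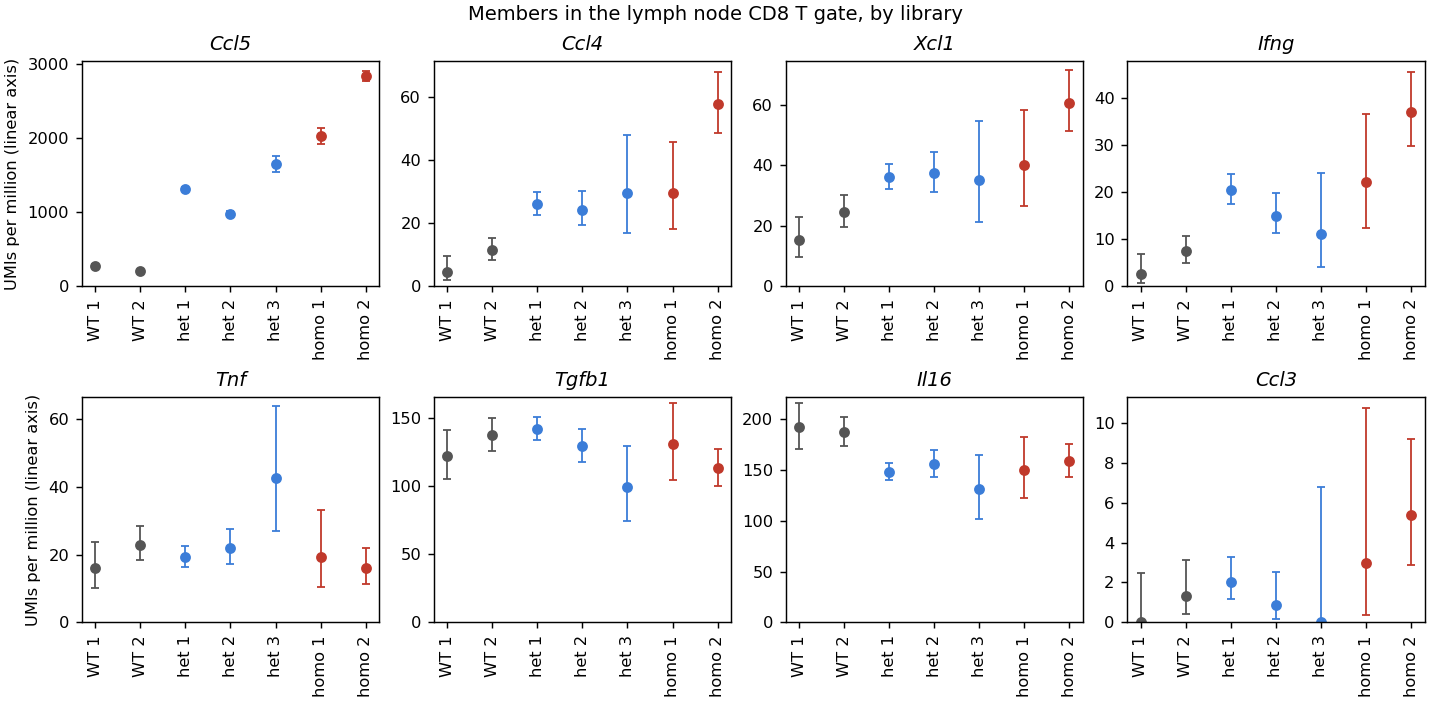
Level of 8 members in the LN CD8 T gate by library (CPM, linear axes; bars are exact Poisson 95% intervals of the count, counting error only). Both WT points lie below all 5 mutant points for Ccl5, Ccl4, Xcl1 and Ifng, and above them for Il16, which was not called. For Tnf, WT replicate 2 lies among the mutant points. The share of all genes that separate in this way is not given.

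Of the other cytokines in CD8 T cells, Tnf stood at 15.9 and 22.9 CPM in WT, 19.3, 22.0 and 42.4 in the het and 19.3 and 16.1 in the homo libraries. The homo values lay within the WT range, and the log2 fold change was -0.21 (SE 0.29, adjusted p = 0.802) in homo and 0.16 (SE 0.21, adjusted p = 0.887) in het against WT. Tgfb1 stood at 122 and 138 CPM in WT, 142, 130 and 99.6 in the het and 131 and 113 in the homo libraries, with a log2 fold change of -0.08 (SE 0.15, adjusted p = 0.874) in homo. Il16 stood at 193 and 188 CPM in WT, 148, 156 and 131 in the het and 150 and 159 in the homo libraries. All 5 mutant libraries lay below both WT libraries for Il16, by a log2 fold change of -0.29 (SE 0.12, adjusted p = 0.395) in het and -0.23 (SE 0.13, adjusted p = 0.473) in homo, neither of which passed. Il10 gave 1 UMI in the 10902 LN CD8 T cells, in WT replicate 2. The 0 in the other libraries allows a share of cells with an Il10 UMI of up to 0.154 to 0.309%, which does not limit the share that expresses the gene.

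Whether a second copy of the allele added to the first was asked by testing homo against het. None of the 7 tested members was called in the CD8 T gate, against 0.0105% of all genes. In edgeR 4 of the 7 passed at an unadjusted p under 0.05, for which the share of all genes is not given, and DESeq2 called none. The log2 fold changes were 0.90 (SE 0.18, adjusted p = 0.138) for Ccl5, 0.96 (SE 0.21, adjusted p = 0.165) for Ccl4, 0.88 (SE 0.24, adjusted p = 0.477) for Ifng and 0.59 (SE 0.18, adjusted p = 0.543) for Xcl1. Without homo replicate 1, Ccl5 and Ccl4 were called (1.15 and 1.18, both at adjusted p = 0.0144), and without het replicate 3 Ccl5 was called (1.07, adjusted p = 0.0368). Without homo replicate 2 the log2 fold changes of homo against het were 0.59 for Ccl5, 0.14 for Ccl4, 0.24 for Ifng and 0.07 for Xcl1, and 1 member passed at an unadjusted p under 0.05. In the CD8 T memory-marker gate described below, Ccl4 was called in homo against het (1.12, adjusted p = 0.0459), against 0.0424% of all genes, but neither by DESeq2 nor when het replicate 1, het replicate 2 or homo replicate 2 was left out. That comparison was added after its values were seen.

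**Figure D3:**
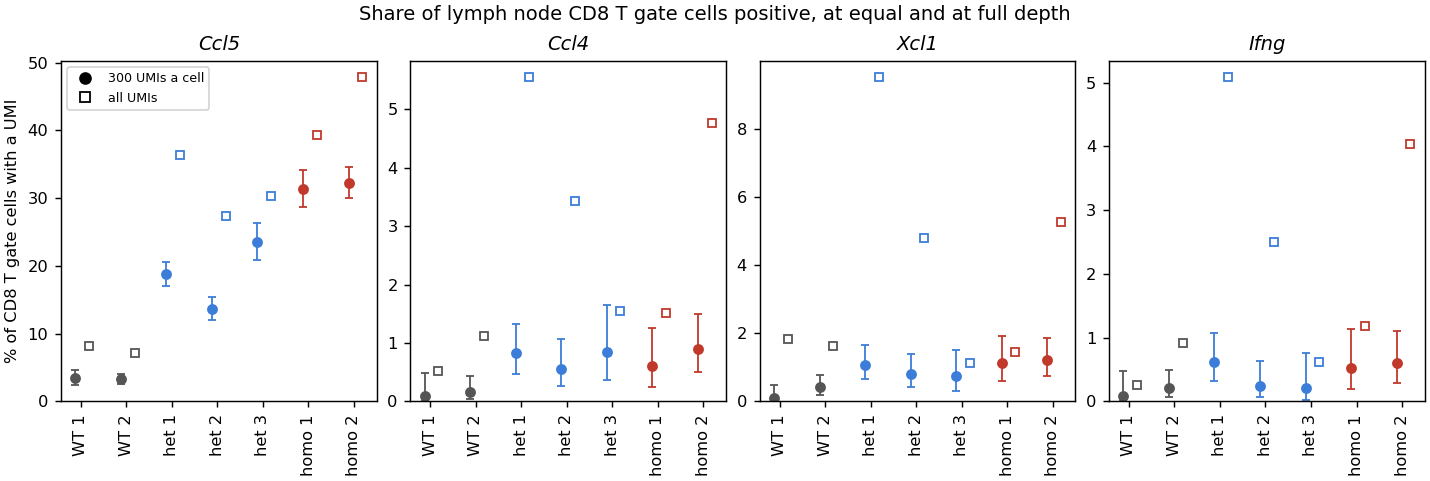
Share of LN CD8 T gate cells with a UMI of Ccl5, Ccl4, Xcl1 or Ifng, with all UMIs (squares) and after thinning every cell to 300 UMIs (circles, with exact binomial 95% intervals). The thinned Ccl5 share runs from about 3% in WT to about 32% in homo, while the thinned shares of the other genes stay at or below 1.21%.

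Markers of memory CD8 T cells moved with genotype in the same gate. A list of 8 (Cd44, Il2rb, Cxcr3, Eomes, Ly6c2, Nkg7, Gzmk and Id2), all detected in each library except WT replicate 1 with 7, summed to 1550 to 1791 CPM in WT, 2341 to 2595 in het and 2702 to 3067 in homo. Eomes and Il2rb also stand in the list of regulators given further on. A list of 7 naive T cell genes summed to 2492 to 2834 CPM over the 7 libraries. The part of the memory list in the members' changes was not tested. Among CD8 T cells with at least 1 UMI of Il2rb, Cxcr3, Eomes, Ly6c2 or Nkg7, which were 61.9 to 93.0% of the gate and so no narrow memory subset, the calls were of the same members. The share was lowest in het replicate 3, the shallowest in this gate (median 511 UMIs), and highest in het replicate 1, the deepest (3912). These markers also belong to the list that moved with genotype, so this gate does not hold memory state or depth fixed. In the CD8 T memory-marker gate, Ccl5 (log2 fold change 3.24), Ccl4 (2.40), Xcl1 (1.36) and Ifng (2.40) were called in homo against WT, against 1.07% of all genes. Ccl5 (2.32), Ccl4 (1.28) and Ifng (1.40) were called in het against WT, against 0.329% of all genes. Ccl5 was the 1 call left in homo without homo replicate 2, and in het by DESeq2 and without WT replicate 1, WT replicate 2 or het replicate 1. Without het replicate 2, Ccl5 and Ifng were called. Cells without these markers held Ccl4 at 0 to 11.5 CPM, Xcl1 at 0 to 17.7 and Ifng at 0 to 5.89, from at most 3, 6 and 1 UMIs in a library. Il16 stood there at 160 to 226 CPM and Tgfb1 at 63.0 to 199. Ccl5 was at 11.4 and 7.09 CPM there in WT, 47.0, 64.8 and 687 in the het and 848 and 366 in the homo libraries, the 2 highest values coming from the 2 shallowest libraries.

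Over all T and NK cells together Ccl5 and Ifng were called in both comparisons. In homo against WT, Ccl5 (2.89), Ifng (2.35) and Ccl4 (2.07) were called among 8 tested members, against 1.23% of all genes. In het against WT, Ccl5 (2.01) and Ifng (1.54) were called in the all T and NK gate, against 0.37% of all genes. Xcl1 was not called there, at 0.84 (adjusted p = 0.157) in homo and 0.30 (adjusted p = 0.728) in het. WT replicate 1 had the second highest Xcl1 level of this gate, 34.1 CPM against 15.6 in WT replicate 2. Its NK gate held 32 cells, against 26 in WT replicate 2 and 6 to 17 in the mutant libraries. Without WT replicate 1, which left 1 WT sample, the log2 fold change of Xcl1 in homo was 1.38. The part of NK cells in these Xcl1 values was not tested. Without homo replicate 2 the Ccl4 value fell to 1.08 (adjusted p = 0.238) and without WT replicate 2 to 1.67 (adjusted p = 0.0818). In het, Ccl4 was at 1.20 (adjusted p = 0.0646) and was called when either homo replicate was left out, among other settings. The Ifng call in het was lost without WT replicate 2 (1.52, adjusted p = 0.166) and without het replicate 1 (1.36, adjusted p = 0.0553).

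In conventional CD4 T cells no member was called in either comparison by edgeR or DESeq2. Of the 4 tested members 0 were called in homo against WT, against 0.409% of all genes, and 0 in het against WT, against 0.252%. At an unadjusted p under 0.05 there were 0 and 1 members, the latter Ccl5 in the conventional CD4 T gate with a log2 fold change of -1.94 in het (adjusted p = 0.415). Its values were 95.0 and 14.0 CPM in WT, 0.778, 27.2 and 88.1 in the het and 56.9 and 18.8 in the homo libraries, and all 40 Ccl5 UMIs of WT replicate 1 came from 1 cell. With that library as the only WT sample, the fall was called in both comparisons (-3.35, adjusted p = 1.69e-11, in het and -2.02, adjusted p = 0.0305, in homo). It was also called without het replicate 2 (-3.68, adjusted p = 0.0136, in het). Ifng gave at most 8 UMIs in a library. Tnf stood at 0 to 38.0 CPM, Tgfb1 at 152 to 229 and Il16 at 219 to 418.

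Few cells fell in the Treg gate, which needs a CD3 chain, a Cd4 and a Foxp3 UMI in the same cell. Het replicate 3 and homo replicate 1, with 6 and 2 such cells, were left out of the fit. They were the shallowest libraries (medians of 410 and 436 UMIs), and the deepest, het replicate 1 (3119), had 82 such cells. The gate counts are therefore no measure of how many Treg cells were present, and the part of depth in them was not tested. Of the 2 tested members, Tgfb1 and Il16, 0 were called, against 0% of all genes in homo and 0.081% in het, with 0 at an unadjusted p under 0.05 and 0 by DESeq2. Tgfb1 stood at 349 and 347 CPM in WT, 262 in het replicate 1, 177 in het replicate 2 and 145 in homo replicate 2, from 3 UMIs in the last. The homo group was then 1 library of 18 cells, with the spread estimated from the other genotypes. The log2 fold change of Tgfb1 in the Treg gate was -1.32 (SE 0.81, adjusted p = 0.62) in homo and -0.43 (SE 0.34, adjusted p = 0.943) in het. Il10, a product of activated Treg cells, gave 1 UMI each in WT replicate 1 and het replicate 1. The 0 in WT replicate 2 allows a share of up to 5.88% of its cells with a UMI.

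In NK cells Ccl5 was higher in each het and homo library than in both WT libraries, as given above. Only 2 WT and 2 het libraries had at least 10 NK cells, and the homo libraries had 9 and 6. In het against WT, 0 of 4 tested members were called, against 0% of all genes tested. At an unadjusted p under 0.05 there were 2, and DESeq2 called 0. Ccl5 gave a log2 fold change of 1.13 in the NK gate (SE 0.25, adjusted p = 0.0572) and Tgfb1 1.62 (SE 0.71, adjusted p = 0.995). Without het replicate 2, and with 1 het sample left, Ccl5 was called (1.51, adjusted p = 8.73e-05). Xcl1 stood at 1311 and 312 CPM in the WT libraries, so that every het and homo value, 326 to 959, lay between them.

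Ccl4, Xcl1 and Ifng were often found in cells that also had Ccl5. In the LN CD8 T gate, 59.3 to 94.5% of Ccl4-positive cells, 42.9 to 92.0% of Xcl1-positive cells and 50.0 to 100% of Ifng-positive cells of a library had a Ccl5 UMI. For Tnf-positive cells the range was 6.58 to 57.9%. Cells with a Ccl5 UMI held Ccl4 at 37.2 and 60.4 CPM in WT, 45.4, 71.6 and 68.9 in the het and 48.2 and 95.4 in the homo libraries. Cells without one held 0.744 to 15.7 CPM of Ccl4 over the 7 LN libraries. In WT replicate 1 the Ccl4 value rests on 5 of 93 Ccl5-positive cells. These cells were chosen by Ccl5, which itself differed between the genotypes, so the levels within them are a description with no test.

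Ifng behaved alike, with 24.8 and 51.3 CPM in Ccl5-positive CD8 T cells of WT, 43.0, 30.4 and 21.2 in the het and 41.3 and 58.8 in the homo libraries, and 0 to 11.7 CPM in LN cells without Ccl5. For Xcl1 the values in Ccl5-positive cells were 68.1 and 84.5 CPM in WT, 66.0, 71.6 and 31.8 in the het and 62.0 and 85.5 in the homo libraries. Cells without Ccl5 held 8.93 to 36.8 CPM of Xcl1, and het replicate 3 was the 1 LN library in which they held more than the positive cells. Il16 ran the other way in 6 of 7 libraries, with 122 to 178 CPM in Ccl5-positive cells and 133 to 195 in negative ones, homo replicate 1 being the exception. Ccl5-positive cells had the higher median UMI count in each library (582 against 497 in homo replicate 1 and 4451.5 against 3638 in het replicate 1). The part of depth in this split was not tested.

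**Figure D4:**
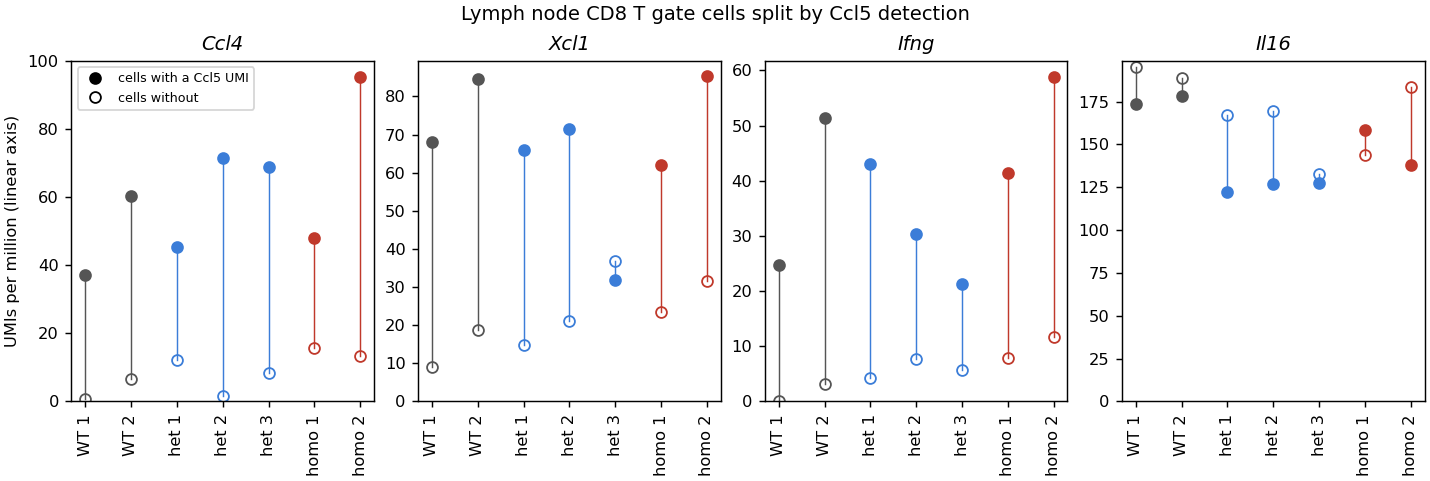
Level of Ccl4, Xcl1, Ifng and Il16 (CPM, linear axes) in LN CD8 T gate cells with a Ccl5 UMI (filled) and without (open), joined within each library. Ccl4 and Ifng were higher in the cells with Ccl5 in all 7 libraries, Xcl1 in 6, and for these 3 genes the filled points of WT overlap those of the mutants.

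The spleen held 1 library per genotype, so its differences have no replicate check and the ratios carry counting intervals only. Ccl5 in splenic CD8 T cells was at 1285 CPM in WT, 971 in Y665H and 4414 in Y665F. The Y665F level was 3.44 times that of WT (exact 95% interval 3.38 to 3.50) and the Y665H level 0.756 times (0.737 to 0.775). The share of CD8 T cells with a Ccl5 UMI was 37.8% in WT, 34.0% in Y665H and 77.3% in Y665F, and 25.7, 22.3 and 65.3% after thinning each cell to 2000 UMIs. In splenic B cells the Ccl5 level was 41.3, 45.6 and 45.4 CPM in WT, Y665H and Y665F, and 12.8, 11.4 and 16.8% had a Ccl5 UMI at full depth, at medians of 3836 to 3910.5 UMIs against 6778 to 8682 in CD8 T cells.

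A member was counted as past 2-fold when its CPM differed over 2-fold and more than 3 UMIs stood behind it, a count of 0 being set at 3. In CD8 T and conventional CD4 T cells all members but Il10 had more than 3 UMIs in at least 1 of the compared libraries. In CD8 T cells 1 member was past 2-fold in Y665F (Ccl5, against 12.3% of all genes) and 1 in Y665H (Xcl1, against 9.79%). A single member is near these shares over all genes. Xcl1 stood at 24.7 CPM in WT, 56.9 in Y665H and 21.0 in Y665F, a ratio of 2.31 (2.00 to 2.66) for Y665H. Of the 556 Xcl1 UMIs in Y665H, 175 came from 1 cell and 60.6% from 5 cells, and the ratio was 1.81 without the top cell and 1.40 without the top 5 of each library. Ifng stood at 6.79, 4.70 and 7.32 CPM in WT, Y665H and Y665F. Ccl3 stood at 2.10, 2.56 and 1.10 CPM, from 26, 25 and 18 UMIs. A single WT cell held 41 of the 84 WT Ifng UMIs, and without the top cell of each library the Y665F to WT ratio was 2.03. Ccl4 stood at 12.7, 18.0 and 14.5 CPM, Tnf at 5.17, 4.70 and 3.78, Tgfb1 at 75.1, 78.4 and 56.3 and Il16 at 117, 102 and 93.0. Il10 gave 0 UMIs in WT and Y665H and 1 in Y665F.

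Neutrophil and memory lists moved with the splenic libraries too. In CD8 T cells the 6 neutrophil genes, all detected in each library, summed to 27.9 CPM in WT, 4377 in Y665H and 2597 in Y665F. The 8 memory genes summed to 1485 CPM in WT, 1493 in Y665H and 2367 in Y665F. Their part in the members' ratios was not tested.

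In splenic conventional CD4 T cells 3 members were past 2-fold in Y665F, against 12.4% of all genes, and 0 in Y665H, against 9.21%. Ccl5 was at 182 CPM in WT, 210 in Y665H and 368 in Y665F, Ccl4 at 1.55, 2.69 and 3.56, and Xcl1 at 4.65, 8.54 and 1.68. Ccl5 passed the limit narrowly, at a ratio of 2.02, and fell short of it under each of the 5 alternatives, at 1.77 to 1.98. The top 5 cells held 34.5% of the Y665F Ccl5 UMIs and 42.9% of those in Y665H. In Treg cells 2 members were past 2-fold in Y665F, against 14.4% of all genes, and 0 in Y665H, against 13.3%. These were Ccl5, at 46.6 CPM in WT, 52.1 in Y665H and 159 in Y665F with 56.2% of the Y665F UMIs in 5 cells, and Il10, from 2, 1 and 8 UMIs. Ccl4 gave 5 UMIs in Y665F and 0 in WT Treg cells, which with the 0 set at 3 was not past 2-fold. The Ccl5 levels of WT and Y665H Treg cells were close to the background in splenic B cells given above. Tgfb1 stood at 105, 114 and 120 CPM in Treg cells, and its Y665F to WT ratio was 1.14 (0.861 to 1.52).

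Splenic NK cells had a Ccl5 UMI in 98.6 to 99.5% of cells, and the level was 12796 CPM in WT, 9755 in Y665H and 22862 in Y665F. The ratio to WT was 1.79 (1.75 to 1.83) in Y665F and 0.762 (0.744 to 0.781) in Y665H. No member was past 2-fold in Y665F, against 14.8% of all genes. In Y665H 2 were, against 11.8%, namely Xcl1 (162 CPM in WT and 328 in Y665H, a ratio of 2.03) and Tnf, from 3 and 6 UMIs. Ccl4 was just short of it, at 197 and 391 CPM, and past it without the 5% of barcodes with most UMIs (2.07), and 52.3% of its Y665H UMIs came from 5 of the 220 cells. Ifng, for which NK cells are a main source, stood at 85.4, 70.6 and 63.0 CPM in WT, Y665H and Y665F, and Ccl3 at 164, 167 and 109. Without the top 5 cells of each library no member was past 2-fold.

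**Figure D5:**
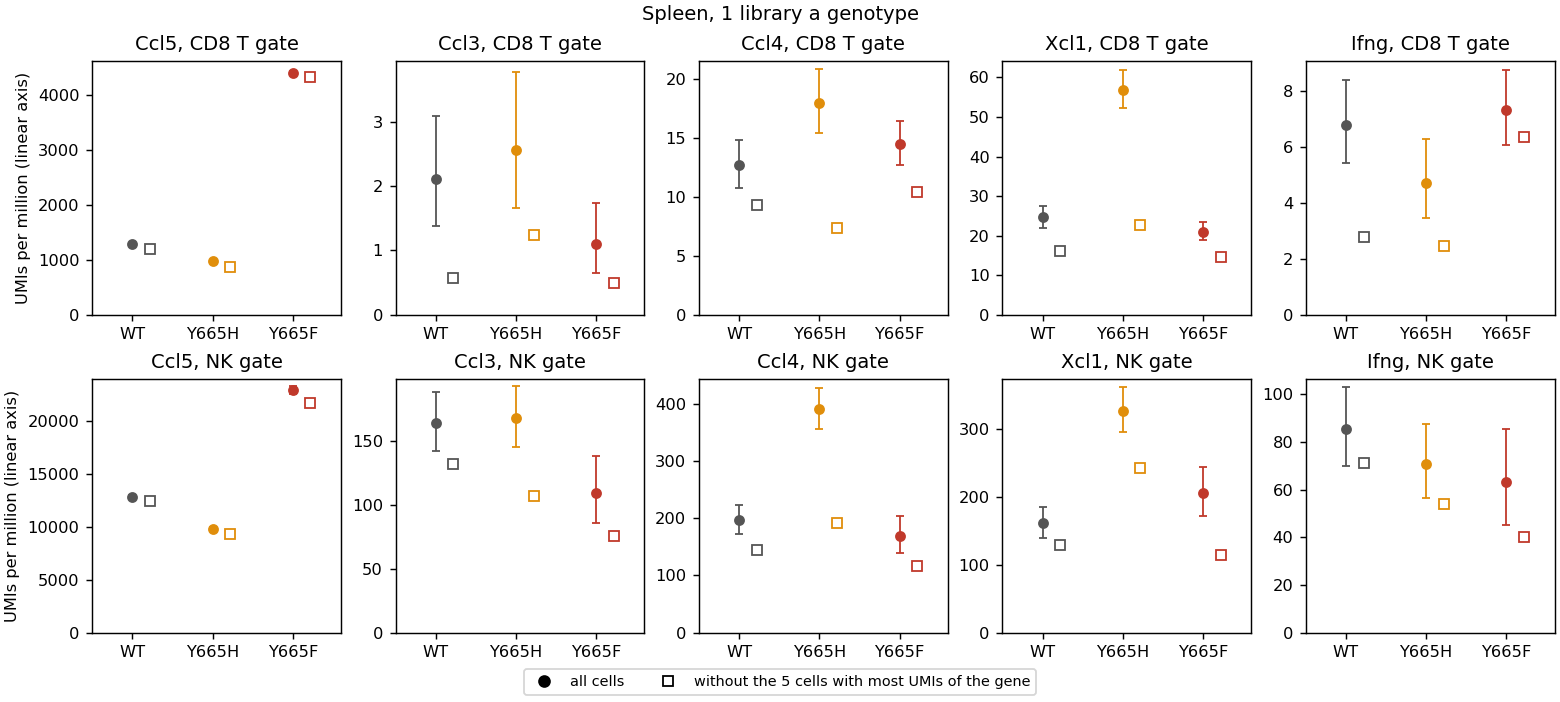
Level of 5 members in the splenic CD8 T and NK gates (CPM, linear axes), 1 library per genotype, with exact Poisson 95% intervals of the count and open squares for the level without the 5 cells that held most UMIs of the gene. Ccl5 is highest in Y665F in both gates, and the high Xcl1 and Ccl4 points of Y665H lie much lower without those 5 cells.

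Genes around the members in the same pathways were read from fixed lists. The lists were chosen with earlier results of these data known, so their counts and medians are descriptions and no separate support. Of 15 listed regulators of type 1 cytokine genes, 11 were tested in the LN CD8 T gate. Of these, 3 were called higher in both homo and het against WT, with none lower. The share called over all genes was 1.21% in homo and 0.491% in het. The list's median log2 fold change was 0.87 in homo and 0.40 in het, beside 0.00 over all genes. Tbx21, the T-bet transcription factor that drives Ifng, rose by 1.71 (adjusted p = 0.00021) in homo and 1.44 (adjusted p = 0.000794) in het on the log2 scale, from 23.9 and 13.8 CPM in WT to 45.3, 37.1 and 62.7 in the het and 55.0 and 52.4 in the homo libraries. Il18r1 and Il18rap, the chains of the IL-18 receptor, rose by 1.58 and 1.12 in homo and 1.01 and 1.07 in het. Of these, Il18r1 in homo kept its call under all 15 alternatives. Without WT replicate 2 the Tbx21 calls were lost (1.17, adjusted p = 0.0693, in homo and 0.89, adjusted p = 0.408, in het), and so was that of Tbx21 in homo without homo replicate 2 (1.69, adjusted p = 0.059). The Il18rap calls were lost by DESeq2 in both comparisons, without WT replicate 2 (1.17 in homo, 1.13 in het), when homo replicate 2 was dropped (1.12) and when het replicate 1 was dropped (0.86 in het). Il18r1 in het, close to the fold limit, lost its call under 7 of 15 alternatives, at values from 0.85 to just under the limit of 1.

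Of 13 receptor genes of the members, 10 were tested in LN CD8 T cells. In homo against WT 2 were called higher and 1 lower, against 1.21% of all genes. Among them Il10ra, a chain of the IL-10 receptor, rose by 1.27 on the log2 scale (SE 0.25, adjusted p = 0.00498). Ifngr2, a chain of the interferon gamma receptor, fell by 1.14 on the log2 scale (SE 0.24, adjusted p = 0.00895). Neither of these genes was called in het, by DESeq2, without WT replicate 2 (Il10ra 1.12 and Ifngr2 -1.01) or without homo replicate 2 (Il10ra 1.54 and Ifngr2 -0.93). The list's median log2 fold change was 0.02 in homo and 0.06 in het. Of 35 other ligand genes 11 were tested, of 10 genes for processing and turnover of the ligands 6, and of 12 immediate early and stress genes 9, and none was called in homo or het CD8 T cells.

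In conventional CD4 T cells the regulator Maf, a factor that drives Il10, fell by 1.69 on the log2 scale in het (adjusted p = 0.000322), but was not called without het replicate 1 (-1.16, adjusted p = 0.575) or by DESeq2 (-1.53). Tnfsf11, the ligand gene RANKL, fell by 3.91 in homo (adjusted p = 0.0396). It lost its call under 8 of 14 alternatives, among them DESeq2 (-3.60), and without WT replicate 2 (-3.65), het replicate 2 (-3.90), homo replicate 1 (-3.74) or homo replicate 2 (-7.86). Over all T and NK cells Maf fell by 1.52 in homo and 1.23 in het, and both calls held under all 15 alternatives. Tbx21 rose there by 1.66 in homo and 1.26 in het, Il18r1 by 1.22 and Il18rap by 1.01 in homo, and Tnfsf11 fell by 1.66 in homo and Il21, a cytokine of helper T cells, by 4.28 in het. The calls there of Tbx21 were lost without WT replicate 2 (1.04 in homo and 0.65 in het) and, in het, without het replicate 1 or het replicate 2 (1.21 and 1.36). Those of Il18rap and Tnfsf11 in homo were lost without WT replicate 2, homo replicate 1 or homo replicate 2 and by DESeq2, and that of Il21 without WT replicate 1 and by DESeq2, among other settings.

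The LN T cell receptor libraries allowed the members to be set against clonotype size, an expanded clonotype being one seen in at least 2 cells. Expanded cells were 0.431 to 5.64% of CD8 T cells with a clonotype, or 4 to 66 cells. The share with a Ccl5 UMI was 0, 12.5, 87.5, 21.2, 31.6, 40.0 and 60.0% among expanded cells of WT 1, WT 2, het 1, het 2, het 3, homo 1 and homo 2. Among single cells it was 8.33, 7.49, 37.5, 30.6, 31.4, 39.1 and 48.9%. Expanded cells were higher in 5 of 7 libraries, by a mean of 7.07 percentage points ± 20.2 (SD, n = 7), at full depth, which an exact sign-flip permutation test did not separate from 0 (two-sided p = 0.516, adjusted p = 1 over the 9 members). Without het replicate 1, where 7 of 8 expanded cells had Ccl5, the mean difference was -0.08. Expanded cells had the lower median UMI count in all 7 libraries (569.5 against 1242.5 in WT replicate 1 and 3864 against 4010.5 in het replicate 1), and the part of depth in these shares was not tested.

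Genes with a like pattern were sought over 35 points, 5 LN gates (CD8 T with and without a memory marker, conventional CD4 T, Treg and NK) in each of 7 libraries, by Pearson correlation of log2(CPM + 10). The points share libraries and depth, and NK and Treg points rest on few cells, so the values are descriptions only. Nearest to Ccl5 were Tbx21 (r = 0.91), Xcl1 (0.90) and Cd7 (0.90), and nearest to Xcl1 were Tbx21 (0.94), Myo1f (0.94) and Tmem37 (0.93). Ccl3 and Ccl4 both followed Klrc1, an NK cell receptor gene, at r = 0.98 and 0.94. Ifng was nearest to Lrrk1 (0.92), Ctla2b (0.92) and S1pr5 (0.90). Tgfb1 was nearest to Mbd2 (0.93), Il16 to Scp2 (0.98) and Foxo1 (0.97), and Tnf to Anapc2, with the lowest leading value of the 8 members examined, 0.81.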

How the data were processed

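Single-cell RNA-seq gene expression was analysed in 7 LN and 3 spleen libraries, with 7 LN T cell receptor libraries; bone marrow was not used. The values are UMI counts per gene and cell barcode, deposited by the authors as filtered Cell Ranger matrices. Per the labels, Cell Ranger 5.0, Seurat 4.0 and mm10 were used. The file headers and the methods name differing Cell Ranger versions, and labels and methods name 3′ and 5′ kits, so levels were compared within a tissue only. No deposited annotation of cells was used. The members and gene lists were chosen with earlier results of these data known.

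Barcodes were kept from 200 detected genes upward and up to 10% of UMIs from mitochondrial genes, which removed 2240 LN barcodes for few genes, nearly all from het replicate 3 and homo replicate 1. No doublet caller was run, and leaving out the 5% of barcodes with most UMIs was an alternative. Counts summed per library and gate were tested with edgeR 4.0.16 (quasi-likelihood, TMM, filterByExpr) in R 4.3.3, with p-values adjusted over all genes tested. Libraries with under 10 cells in a gate were left out, and DESeq2 1.42.0 was an alternative. On simulated CD8 T counts of homo against WT, 68% of 2-fold and 94.8% of 4-fold changed genes passed on adjusted p. Of the 9418 genes, 7 unchanged ones passed as well. The fold limit was not applied to the simulated counts, so these rates do not describe the calls, which needed both. Spleen ratios have exact binomial-based 95% intervals. Intervals and floors (3 counts) cover counting error only. LN libraries are separate samples, which the labels do not tie to animals beyond their titles, so p-values measure the spread between these samples. All 9 members were counted in every gate, but the text does not give a value for each of them in every gate. Of each list the called genes were named, at most 5 a comparison, except 1 gene that is not reported here, and of the likeness ranking the leading genes.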

Additional observations from a re-analysis of the deposited data

Results flagged for a closer look

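Xcl1 in the CD8 T gate lay on opposite sides of WT in the 2 tissues for Y665F, but the spleen direction depended on the setting. In LN it was higher in all 5 Y665F libraries (35.05 to 60.7 CPM) than in both WT libraries (15.3 and 24.5 CPM). In spleen the Y665F to WT ratio was 0.851 (exact 95% interval 0.728 to 0.997) over 1 library each, and 0.911 without the 5 top cells of each library. It turned to 1.25 (1.03 to 1.53) with 0 UMIs of other lineages allowed and 1.09 (0.896 to 1.32) without the 5% of barcodes with most UMIs. The difference between the tissues was not tested.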

How the results depend on the processing

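Of the values recomputed under alternative settings, leaving aside the genotype-order test, which can hardly pass its adjusted threshold with 7 libraries, 685 kept their direction and side of the threshold or, for counts, stayed within 1.5 times the main count, 48 counts moved, 20 single-gene values gained and 44 lost a call, and 4 changed sign. The cause of these shifts was not tested unless stated. Leaving out each library in turn, the members called in the CD8 T gate were 1 to 4 in homo against WT, 1 to 3 in het against WT and 0 to 2 in homo against het. They were 1 to 4 and 1 to 3 in the memory-marker gate, 0 to 1 and 0 to 1 in conventional CD4 T cells, 0 to 1 in NK cells (het) and 1 to 3 over all T and NK cells (het). In homo against het, 2 members were called without het replicate 3 and homo replicate 1 together, 2 with at least 500 genes per barcode and 1 without the 5% of barcodes with most UMIs. In the memory-marker gate, homo against het gave 1 call (Ccl4), 0 to 2 leaving out each library in turn, 0 with DESeq2, 2 without het replicate 3 and homo replicate 1 together and 2 with at least 500 genes per barcode. DESeq2 called 1 member in the memory-marker gate in het. Without the filter on low counts 1 member was called in conventional CD4 T cells in het (Ccl5, lower), and without the 5% of barcodes with most UMIs 1 in NK cells in het (Ccl5). Log2 fold changes that changed sign when 1 library was left out ranged from -0.36 to 0.10 for Tnf in CD8 T cells (homo), -0.062 to 0.13 for Tgfb1 in CD8 T cells (het) and -0.33 to 0.85 for Xcl1 over all T and NK cells (het). The clonotype difference of Ccl5 ranged from -0.084 to 9.82 percentage points when 1 library was left out, and was 15.2 for clonotypes of at least 3 cells, over 2 libraries with 7 and 1 such cells.

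With the replicate number as a block, 1 member was called in the memory-marker gate in het against WT (3 without it) and 0 in homo against het (1 without it), and the block moved no other count of called members. Same-numbered LN libraries had correlations of -0.179 to 0.132 over 6 pairs, taken on deviations from the genotype means. In a genotype with 2 libraries these deviations mirror each other, so the 6 pairs are not separate checks. Whether the numbers pair the libraries cannot be settled from these values.

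In spleen, members past 2-fold in CD8 T cells of Y665F were 2 with 0 UMIs of other lineages allowed and 3 without the 5% of barcodes with most UMIs. The same count was 2 without the top cell and 2 without the top 5 cells of each member, both alternatives chosen after seeing the data. In Y665H CD8 T cells these counts were 2 with 0 UMIs of other lineages and 0 without the top cell, where Xcl1 fell short at 1.81. In Y665H NK cells they were 1 with 0 UMIs of other lineages, 3 without the 5% of barcodes with most UMIs, 1 without the top cell and 0 without the top 5. In Y665F Treg cells they were 1 without the 5% of barcodes with most UMIs, 1 without the top cell and 1 without the top 5. In conventional CD4 T cells of Y665F they were 1 with 0 UMIs of other lineages and 1 without the top 5 cells, and in Y665H 1 with 0 UMIs of other lineages, 1 without the 5% of barcodes with most UMIs, 1 without the top cell and 2 without the top 5. The NK gate could not be fitted for homo against WT, since both homo libraries had under 10 cells. Counts of all genes called in the CD8 T gate were 116 in homo and 47 in het with edgeR, 54 and 17 with DESeq2 and 158 and 86 without the filter on low counts. Ccl3 and Il10 gave too few UMIs to be tested in the LN CD8 T, conventional CD4 T and Treg gates, and the LN Treg and NK gates held few cells.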
